A study of Mus musculus with 54 samples.

Results

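Zfp_MB022 and Zfp_MB012 are KZFPs (KRAB zinc-finger proteins) of the mouse Chr4 cluster whose ChIP-seq peaks share one family of LTR sequences, for which the study gives the name LTRIS2. The members described here are all peaks of their lists, 365 for Zfp_MB022 and 98 for Zfp_MB012, which makes 463 of 25012 peaks over 42 lists. The pair was chosen by its peak sequences, because the 2 lists hold this family, so the family and the overlap of the lists are descriptions and were not tested. Each KZFP was over-expressed with an HA tag at its C terminus, from a Sleeping Beauty transposon vector, in F9 cells, which are embryonal carcinoma cells of the mouse. Bound DNA was recovered with an antibody against HA. Each KZFP has 1 library, Zfp_MB022 in batch 4 and Zfp_MB012 in batch 3, and each was compared with the mixed input of its batch. Empty vector controls, cells that carried no KZFP construct, were made in batches 1, 2 and 4, so batch 3 had none of its own. Batch and KZFP therefore cannot be told apart between the 2 lists. The Zfp992 list (131 peaks, batch 3) and the other lists serve for comparison.

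KZFPs bind DNA through an array of C2H2 zinc fingers, in which a few residues of each finger contact the bases, and recruit the corepressor KAP1 (TRIM28) through the KRAB domain. In embryonic cells KAP1 brings the H3K9 methyltransferase SETDB1 to endogenous retroviruses (ERVs) and silences them. An ERV carries an LTR at each end, which holds its promoter, and many copies survive as solitary LTRs. Compared finger by finger, the arrays of the pair were shortened versions of the Zfp992 array, which has 11 fingers. The Zfp_MB022 array matched its first 9 fingers and lacked fingers 10 and 11. The Zfp_MB012 array, also of 9 fingers, lacked fingers 6 and 11. The arrays of the pair therefore had 8 fingers in common in the same order, of which the first 5 were contiguous.

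A 200 bp window around each summit was compared with the Zfp_MB022 window that matched most of the others in that list (at least 100 aligned bp at 80% identity). This seed lies on chromosome 2 (GRCm39), with its summit at position 150331296, in intergenic sequence 4285 bp from the nearest transcription start, that of the zinc-finger gene Zfp345. The aligned element around it was 507 bp long (chr2:150331198-150331704). Within it, 5 of the 6 motifs that the study derived from the 3 lists fell in one short stretch. The other, the RCADE motif of Zfp992, was in 0 of the first-family windows of the 3 lists. A 24-base site at positions 83 to 106 of the element (chr2:150331280-150331303, plus strand) covers both Zfp_MB022 motifs, the shorter of which is AACAGATAGCGA, one Zfp_MB012 motif, TAAAACAGATAGCGA, and the MEME motif of Zfp992, which was read on the opposite strand. The MEME motif of Zfp_MB012, of 15 letters, starts 3 bases past the end of this site. The site is shown first with the longer Zfp_MB022 motif in capitals as it stood in the highest common peak, and then as in the seed and in its 2 most frequent single-base variants among genomic copies, with the changed base in capitals. Positions are counted from 1 at the 5′ end of the site.
highest common peak: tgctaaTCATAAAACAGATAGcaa
seed copy: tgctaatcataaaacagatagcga
G23A variant: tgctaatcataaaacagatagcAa
C22T variant: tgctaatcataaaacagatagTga

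The Zfp_MB022 list was largely made of this family and the Zfp_MB012 list was not. The family held 272 of 365 Zfp_MB022 peaks (74.5%, 95% interval 69.7% to 78.9%) and 39 of 98 Zfp_MB012 peaks (39.8%, 30.0% to 50.2%). It also held 40 of 131 Zfp992 peaks (30.5%). Over the 34 lists of other arrays, 5 of 23717 peaks belonged to it, which is 0.0211%. All intervals are exact binomial and reflect only the counting of peaks or copies. The Zfp_MB022 motif TCATAAAACAGATAG was found without mismatch, on either strand, in 242 Zfp_MB022 windows, of which 240 were in the family, and in 33 Zfp_MB012 windows, all 33 in the family. It was in 2 of 365 windows of the same length 1000 bp upstream of the Zfp_MB022 summits (0.548%) and in 1 of 23717 windows of the other lists (0.00422%). The study derived this motif from the Zfp_MB022 peaks, so these shares are descriptions. None of the motifs of the 3 KZFPs was found in any of the 59 Zfp_MB012 windows outside the family.

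Of the Zfp_MB022 peaks, 43 of 365 (11.8%, 8.66% to 15.5%) overlapped a Zfp_MB012 peak by at least 1 bp, and the same 43 sites made up 43.9% of the Zfp_MB012 list (33.9% to 54.3%). These are called common sites and the other peaks of each list private. Of the pooled peaks of the 34 lists of other arrays, 0.675% overlapped a Zfp_MB022 peak and 0.274% a Zfp_MB012 peak. By list, the overlap with Zfp_MB012 was highest in Zfp_MB004 (14.8%) and Zfp_MB010 (11.6%), both of batch 3. Its mean over lists of other arrays was 3.11% in batch 3 and 0.864% in batch 4. Every one of the 39 Zfp_MB012 family peaks was a common site. At 1 of these, in an intron of Gm38915 on chromosome 6, the Zfp_MB022 window itself fell outside the family, so that 38 Zfp_MB022 family peaks were common and 234 were private. The family peaks of Zfp_MB012 were thus a subset of the loci in the Zfp_MB022 list. None of the 55 private Zfp_MB012 peaks belonged to the family (upper limit 6.49%).

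Common sites had the higher folds in the Zfp_MB022 list. Fold enrichment over input, as MACS2 gives it, ranged from 10.0 to 56.3 with a median of 30.8 at the 38 common family peaks, against 10.1 to 45.7 with a median of 15.3 at the 234 private family peaks. When the 272 family peaks were ordered by fold and split into 4 groups of 68, a split made after seeing the data, 25 of the highest group were common (36.8%, 25.4% to 49.3%), against 8, 3 and 2 in the groups that followed. The same peaks had lower folds in the Zfp_MB012 list, where the 39 family peaks ranged from 10.0 to 22.2 with a median of 12.5. The fold was higher in Zfp_MB022 than in Zfp_MB012 at 36 of 38 common family sites, with a median ratio of 2.25. Folds of the 2 lists are relative to different inputs, and both lists stop at a fold of 10, so a family site that Zfp_MB012 bound more weakly would not be in its list. The Zfp_MB022 library was the more deeply sequenced and its input the less deeply sequenced of the 2, and the part of depth in the difference was not tested. Over the 38 sites the folds of the 2 lists had a Spearman rho of 0.45 and, on the log2 scale, a Pearson r of 0.44, a description of sites that share 1 library per KZFP.

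**Figure D1:**
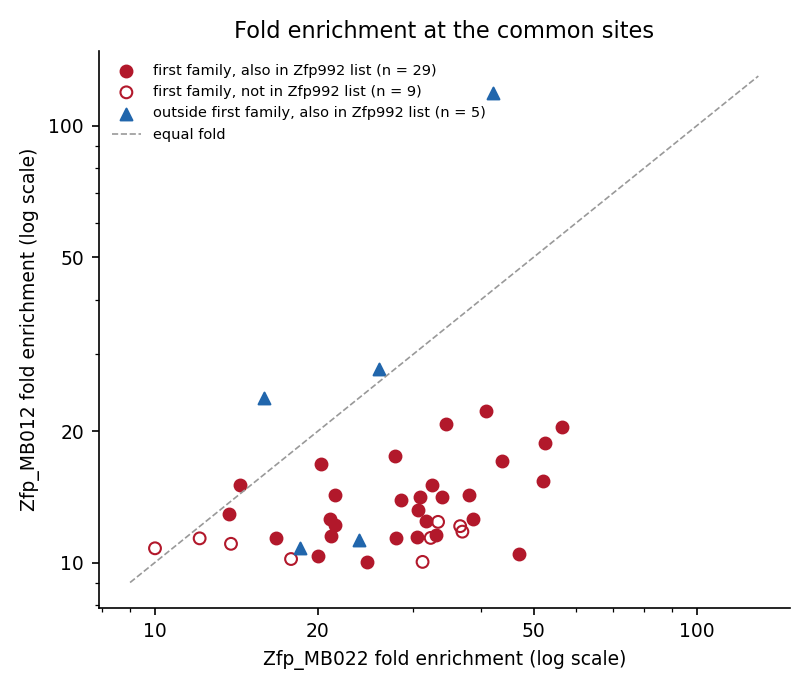
Fold enrichment over input at the 43 common sites, Zfp_MB022 on the horizontal and Zfp_MB012 on the vertical axis (both log scales). Each point is a site, filled red for first-family sites also in the Zfp992 list, open for those that are not and blue triangles for sites outside the family, and 36 of the 38 family sites lie below the dashed line of equal fold.

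The 5 common sites with the highest Zfp_MB022 fold all carried the family and were all in the Zfp992 list too. The highest lay in an intron of the agouti gene a, which encodes a signalling protein that sets coat color (chr2:154745780-154746469). Its fold was 56.3 in Zfp_MB022 and 20.5 in Zfp_MB012. The next lay in an intron of Gm39624 on chromosome 1, with folds of 52.4 in Zfp_MB022 and 18.8 in Zfp_MB012. The third was intergenic on chromosome 12, at 4847 bp from the start of Gm54563, with folds of 52.1 and 15.3 in the same order. The fourth, in an intron of Gm31456 on chromosome 14, had folds of 47.1 and 10.5. The fifth lay in an intron of Alk, which encodes a receptor tyrosine kinase (chr17:72786063-72786550), with folds of 43.8 and 17.1. Of these, 4 had the G23A form of the site, and the chromosome 12 site differed from it at that position only. The sites of 3 of them follow, to show the 2 forms, with the Zfp_MB022 motif in capitals.
a, chr2:154746181-154746204, minus strand: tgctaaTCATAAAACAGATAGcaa
near Gm54563, chr12:90943130-90943153, plus strand: tgctaaTCATAAAACAGATAGcta
Alk, chr17:72786296-72786319, plus strand: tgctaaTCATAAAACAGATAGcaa

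Private Zfp_MB022 family peaks reached similar folds at single loci. The highest, 45.7, was intergenic on chromosome 18, 14896 bp from Rnf138, which encodes a ubiquitin ligase. The next, 40.7, lay in an intron of Gm66792 on chromosome 10 with the G23A form of the site (chr10:40431787-40431810, plus strand). The others were at 36.9 (chromosome 12, 1206 bp from the pseudogene Gm7986), 32.9 (chromosome 8, an intron of Gm39132) and 32.3 (chromosome X, 98232 bp from any transcription start). The chromosome 12 and chromosome 8 peaks were also in the Zfp992 list. The peaks on chromosomes 10, 12, 8 and X carried the longer Zfp_MB022 motif and had folds within the range of the common sites, and they were not in the Zfp_MB012 list.

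**Figure D2:**
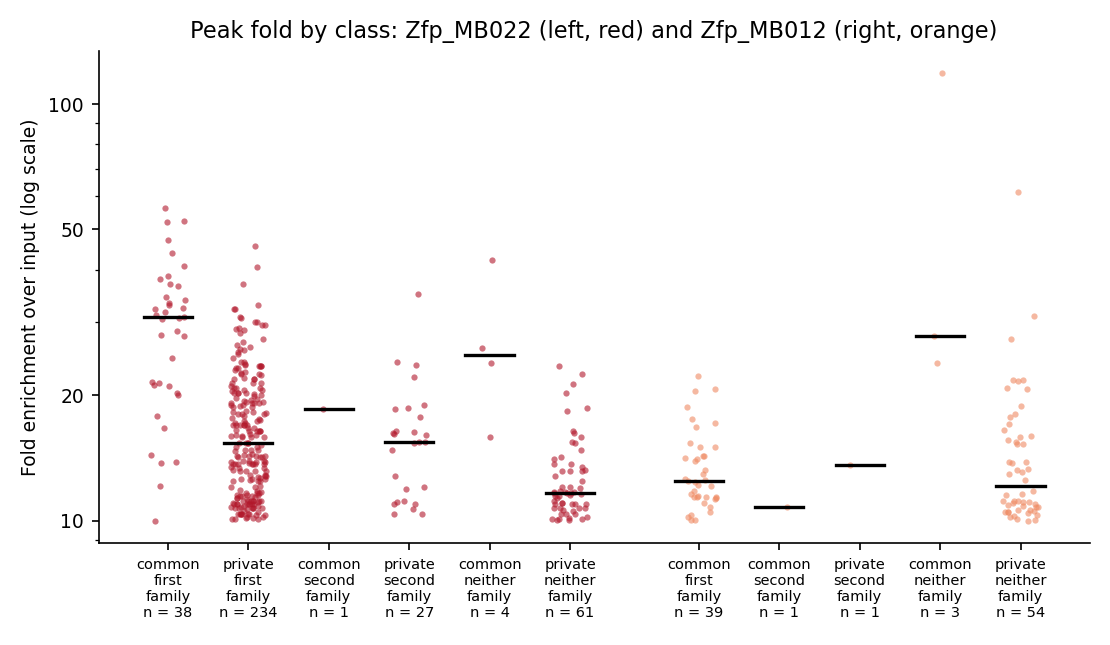
Fold enrichment over input (log scale) of every peak, Zfp_MB022 in red on the left and Zfp_MB012 in orange on the right, by whether the peak is common or private and by sequence family; black bars are medians. Within Zfp_MB022 the 38 common family peaks have a median of 30.8 and the 234 private ones of 15.3, and Zfp_MB012 has no private peak in the first family.

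Summits of the 2 KZFPs coincided at common sites. The absolute distance between summits had a median of 11 bp (quartiles 5 and 18.5 bp, range 0 to 70 bp, n = 43), and 42 of 43 pairs were within 50 bp. On the strand of the element, the Zfp_MB022 summit minus the Zfp_MB012 summit had a median of -1 bp (SD 19.5, n = 38), with 22 negative and 15 positive values. The largest distance, 70 bp, was at the site in Alk. The median lay well within the spread between sites. That spread is no measure of a small common shift, and a shift of a few bp was not tested. At the 29 family sites also held by Zfp992, the Zfp_MB022 minus Zfp992 summit distance had a median of -2 bp (SD 17.1).

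The 24-base site could be read in every family peak of the 3 lists. Zfp_MB022 summits lay a median of 13.5 bp past its centre (SD 20.05, n = 272), and 256 of them were within 50 bp (94.1%). Zfp_MB012 summits lay a median of 13.5 bp past the centre as well (SD 16.5, n = 39), with 38 within 50 bp. Zfp992 summits lay 18 bp past it (SD 17.03, n = 40). The MEME motif of Zfp_MB012, which starts 3 bases past the site, was present in 26 of 39 Zfp_MB012 family windows (66.7%) and in 177 of 272 Zfp_MB022 family windows (65.1%), so it marked the element and did not set the Zfp_MB012 sites apart.

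**Figure D3:**
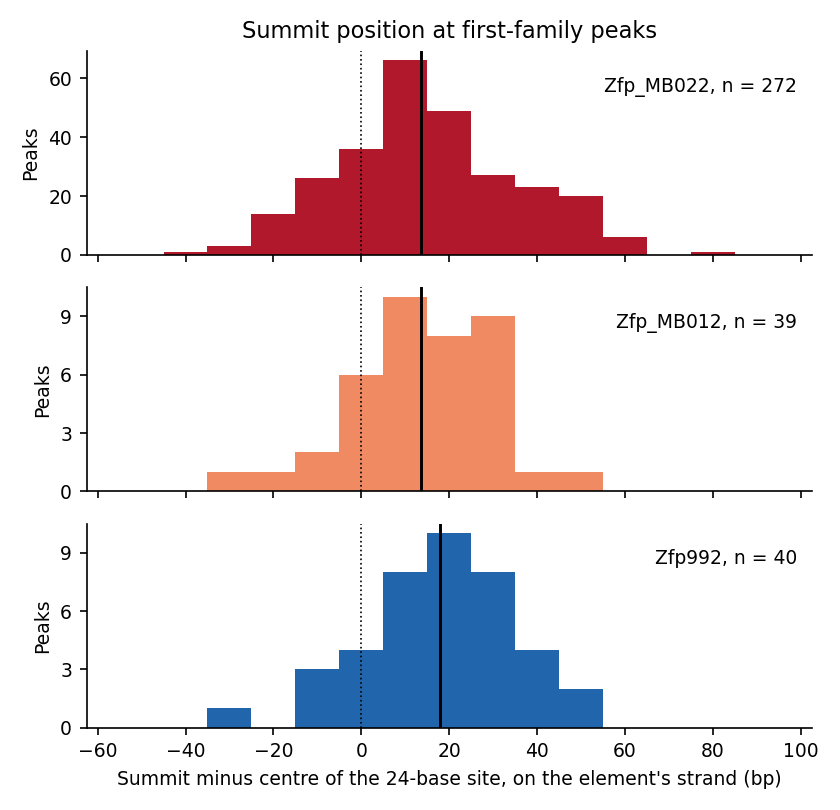
Number of first-family peaks by the distance of the summit from the centre of the 24-base site, in bp along the strand of the element, for Zfp_MB022 (n = 272), Zfp_MB012 (n = 39) and Zfp992 (n = 40), in bins of 10 bp. The dotted line is the site centre and the solid line the median, at 13.5, 13.5 and 18 bp.

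Base by base, the sites of the 2 lists differed near the 3′ end. The change C22T was in 0 of 39 Zfp_MB012 sites (upper limit 9.03%) and in 57 of the 234 private Zfp_MB022 family sites (24.4%, 19.002% to 30.4%). It was likewise in 0 of 40 Zfp992 sites (upper limit 8.81%). At the next base, G23A was in 14 of 38 common sites (36.8%, 21.8% to 54.0%), against 56 of 234 private sites (23.9%, 18.6% to 29.9%), and these intervals overlap. The base of the seed at this position was in 17 of 38 common sites (44.7%, 28.6% to 61.7%). It was in 163 of 234 private sites (69.7%, 63.3% to 75.5%), and here the intervals do not overlap. Peaks of the same library were counted as units, so the intervals are a description and no test of a difference. Zfp_MB022 peaks with C22T as the only change had a median fold of 13.2 (n = 49), against 16.8 for the seed form (n = 98) and 19.9 for G23A as the only change (n = 62). Position 22 lies outside the longer Zfp_MB022 motif (positions 7 to 21) and inside the shorter one and the printed Zfp_MB012 motif. Fold and base moved together, since C22T was in 5, 11, 20 and 21 of the 68 peaks of each group from the highest fold down. Without the C22T sites, 25 of 63 peaks of the highest group were common (39.7%) and 2 of 47 of the lowest (4.26%). The seed form had a lower median fold than G23A, and common sites had the higher folds. The part of fold in the contrast at the base after position 22 was not tested. This base and the base at position 22 were compared after the values had been seen, and their part in binding was not tested.

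The element was then searched in the whole of GRCm39. At 80% identity over at least 100 bp there were 944 copies, of which Zfp_MB022 had a summit in 168 (17.8%, 15.4% to 20.4%) and Zfp_MB012 in 23 (2.44%, 1.55% to 3.63%). All 23 were among the 168. The family held 272 Zfp_MB022 and 39 Zfp_MB012 peaks, and the rest of these lay in no copy counted at this limit. At 70% identity, a limit added after seeing the data, 273 of 1686 copies held a Zfp_MB022 summit and 39 a Zfp_MB012 summit, which are 16.2% and 2.31%. All 168 copies with a Zfp_MB022 summit were among the 677 copies at 80% identity that spanned the whole site. Among these, Zfp_MB022 had summits in 65 of 161 copies with the seed form (40.4%, 32.7% to 48.4%), in 43 of 97 with G23A alone (44.3%, 34.2% to 54.8%) and in 17 of 78 with C22T alone (21.8%, 13.2% to 32.6%). Zfp_MB012 had summits in 7 (4.35%, 1.77% to 8.75%), 10 (10.3%, 5.06% to 18.1%) and 0 of them (upper limit 4.62%). The intervals for the seed form and for C22T overlap. The motif TCATAAAACAGATAG was in 20 of the 23 copies with summits of both (87.0%) and in 129 of the 145 with a Zfp_MB022 summit only (89.0%), against 300 of the 509 with neither (58.9%). The seed form of the site was in 7 (30.4%) and 58 (40%) of the bound copies in the same order, against 96 of the unbound ones (18.9%). Unbound copies thus carried the site less often, but many did carry it. The motif, the site and the seed were derived from peaks of these lists. A higher share in bound copies was therefore partly fixed in advance and is only a description. Over all 944 copies, median identity to the seed was 82.6% for those bound by both and 81.9% for those bound by Zfp_MB022 alone. For the 776 copies bound by neither, of which 509 spanned the site, it was 83.4%. A copy without a summit may also be one where reads mapped equally well elsewhere, since 1 of several equal alignments was kept at random. Copies and their bases were read from GRCm39, and the genome of the F9 cells themselves was not examined.

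**Figure D4:**
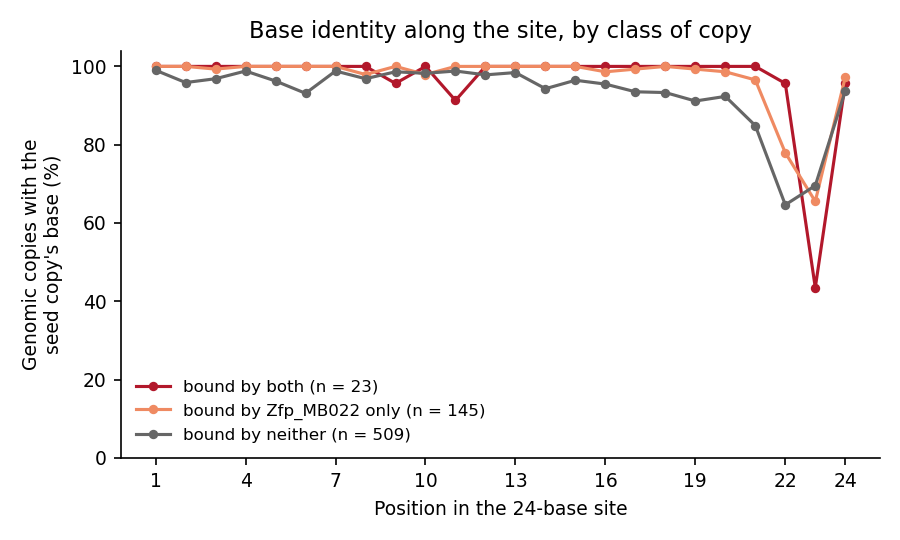
Percentage of genomic copies with the base of the seed copy at each position of the 24-base site, for copies bound by both KZFPs (n = 23), by Zfp_MB022 only (n = 145) and by neither (n = 509). The site and the seed were derived from peaks of these lists. Over positions 1 to 21 the lowest value is 91.3% in copies bound by both, 96.6% in those bound by Zfp_MB022 only and 84.9% in those bound by neither, and at position 22 the values are 95.7%, 77.9% and 64.6%.

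The Zfp992 list overlapped the Zfp_MB022 list in part. Of its 131 peaks, 64 overlapped neither list of the pair. Of the same 131, 67 overlapped a Zfp_MB022 peak (51.1%, 42.3% to 60.0%) and 34 a Zfp_MB012 peak (26.0%, 18.7% to 34.3%), and all 34 overlapped both. In terms of the pair, these were 18.4% of the Zfp_MB022 list and 34.7% of the Zfp_MB012 list. Of the peaks of the 34 lists of other arrays, 0.223% overlapped a Zfp992 peak. Of the 43 common sites, 34 were in the Zfp992 list (79.1%, 64.0% to 89.96%), against 33 of 322 private Zfp_MB022 sites (10.2%, 7.16% to 14.1%) and 0 of 55 private Zfp_MB012 sites (upper limit 6.49%). Among Zfp_MB022 family peaks, presence in the Zfp992 list also fell with fold. It was 27, 8, 3 and 1 of the 68 peaks of each group from the highest fold down. Zfp992 and Zfp_MB012 were both in batch 3, and the parts of fold and batch were not tested. Of the 40 Zfp992 peaks in the family, 39 were in the Zfp_MB022 list and 29 in the Zfp_MB012 list. The 29 family sites held by all 3 had a median Zfp_MB022 fold of 30.7, the 9 held by the pair but not by Zfp992 31.2, the 10 held by Zfp_MB022 and Zfp992 23.6, and the 224 of Zfp_MB022 alone 14.9.

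Outside the LTR family, a second sequence was held by part of the Zfp_MB022 list and by the lists with the Zfp992 array. It was defined after the values had been seen, from the Zfp992 window that matched most other Zfp992 windows outside the first family. It held 28 of 365 Zfp_MB022 peaks, 2 of 98 Zfp_MB012 peaks and 71 of 131 Zfp992 peaks, and 0 of 23717 peaks of the 34 lists of other arrays. In the 5 further lists with the array of Zfp992, it held 518 of 664 peaks (78.0%). All 27 private Zfp_MB022 peaks of this family overlapped a peak of those 5 lists. Of the 28 Zfp_MB022 peaks, 19 were in the Zfp992 list, with a fold of 10.4 to 23.98 for the 18 that were not common. The first-family site of the seed and the most frequent second-family site of the Zfp992 windows are shown for comparison, with capitals for bases that match when the 2 are aligned with gaps. Of 22 aligned bases, 15 were identical.
first family: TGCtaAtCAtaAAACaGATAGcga
second family: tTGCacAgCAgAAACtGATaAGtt
The matches fall in short runs, and the alignment has a single-base gap in each site. The MEME motif of Zfp992 was found in both families, in 256 of 272 and 24 of 28 Zfp_MB022 windows. The RCADE motif of Zfp992 was in the second family, in 20 of 28 Zfp_MB022 and 40 of 71 Zfp992 windows. Of the highest private Zfp_MB022 peaks outside the first family, 3 of 5 were in the second. These were in an intron of Ppm1b, which encodes a protein phosphatase (chromosome 17, fold 34.9), 13436 bp from the pseudogene 1700030C10Rik on chromosome 12 (23.98) and 4340 bp from Acyp2, an acylphosphatase gene, on chromosome 11 (23.7). The other 2 were narrow peaks of 191 bp, on chromosome 12 (23.5) and in an intron of 4933416E14Rik on chromosome X (22.5), and each was in lists of other arrays as well.

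Among the 5 common sites outside the family by the Zfp_MB022 window, the highest Zfp_MB012 peak of all stood in an intron of 9530059O14Rik on chromosome 9. Its fold was 42.1 in Zfp_MB022 and 119 in Zfp_MB012, with summits 4 bp apart. A site 446 bp from the start of Gm36897 on chromosome 6 had folds of 26.0 in Zfp_MB022 and 27.8 in Zfp_MB012. A site in an intron of 4930557F10Rik on chromosome 13 had 15.9 and 23.8 in the same order. The second-family site in Serpinb6a, a protease inhibitor gene, had 18.6 and 10.8, and the site in Gm38915 had 23.9 and 11.2. All 5 were also in the Zfp992 list. These 3 loci of neither family were the common sites with the higher fold in Zfp_MB012, besides 2 in the family.

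The private peaks of Zfp_MB012 had no motif of the 3 KZFPs. Their median width was 605 bp, against 571 bp for common peaks of that list and 352 bp for private Zfp_MB022 peaks. Their folds ranged from 10.0 to 61.7 with a median of 12.5. Of the 54 in neither family, 17 overlapped a peak of the 34 lists of other arrays (31.5%). So did 10 of the 39 first-family peaks of Zfp_MB012 (25.6%). In Zfp_MB022, 33 of the 61 private peaks in neither family did so (54.1%), and 44 of the 272 first-family peaks (16.2%). Summits of the private Zfp_MB012 peaks lay within 1000 bp of a transcription start in 12 of 55 (21.8%, 11.8% to 35.0%). This was so for 10 of 88 private Zfp_MB022 peaks outside the first family (11.4%, 5.59% to 19.9%). It was so for 3 of 43 common sites (6.98%, 1.46% to 19.1%). These intervals overlap. Over all peaks of the 34 lists of other arrays the share was higher, 28.1% (6661 of 23717). The highest private peak lay 52 bp from the start of Etv6, which encodes an ETS-family transcriptional repressor (chr6:134012033-134013067, fold 61.7). The peak at Tmed5, a gene for a cargo receptor between the endoplasmic reticulum and the Golgi, had a fold of 21.8 at 51 bp from the start. Other starts were those of Snhg7, a snoRNA host gene (17.02), Atf7ip, which encodes a partner of SETDB1 (16.01), Pan2, the catalytic subunit of a deadenylase (13.3), Cystm1 (13.2), Gm41392 (13.1), Zbtb1, a zinc-finger transcription factor (12.9), the small nuclear RNA gene Gm25679 (11.8) and Sema6d, a semaphorin (11.5). Away from starts, the highest were in an intron of Ptgis, the prostacyclin synthase gene (chromosome 2, 30.9), and intergenic on chromosomes 12 (27.3) and 9 (21.7). The absence of a control without KZFP in batch 3 stands beside these peaks, and its part in them was not tested.

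A related measure comes from lists that carry the array of Zfp992 in other proteins. They were not used to choose the pair, but Zfp992, with the same array, was named for comparison in that choice. The measure is therefore not independent of it. The lists are Zfp993, Zfp_MB024, Zfp_MB027, Zfp_MB029 and Zfp_MB031. Of their peaks, 31.5%, 41.2%, 28.7%, 30.6% and 43.1% overlapped a Zfp_MB022 peak, against 0% to 15.8% in the 34 lists of other arrays, so the 2 groups did not overlap. The means were 35.0% and 2.10%, a difference of 32.9 percentage points (one-sided exact permutation test over lists, p = 1.74e-06, the smallest that the 575757 permutations can give, adjusted p = 2.61e-06 over 3 values). The overlap with Zfp_MB012 averaged 10.2% in the 5 lists and 1.54% in the others, a difference of 8.64 points (exact permutation test, adjusted p = 0.000292). Here the groups overlapped, at 4.26% to 13.8% and 0% to 14.8%. The first family held 2.13% to 20.3% of the 5 lists and at most 0.299% of any other list (difference of means 11.9 points, exact permutation test, adjusted p = 2.61e-06). Most peaks of the 5 lists were in the second family, from 71.9% in Zfp_MB024 to 93.6% in Zfp_MB027. Of the 234 peaks of the 5 lists that overlapped a Zfp_MB022 peak, 85 were in the first family, 132 in the second and 17 in neither. Of the 70 that overlapped a Zfp_MB012 peak, 48 were in the first family, 7 in the second and 15 in neither. Within batch 4, with 4 lists against 15, all 3 differences had p = 0.000258 in the exact permutation test, again the smallest possible. Within batch 3 only Zfp993 could be set against 10 lists, where p cannot go below 0.0909. Among peaks with a fold of at least 15, the overlap with Zfp_MB012 missed the threshold of 0.05 (exact permutation test, adjusted p = 0.135). The 5 lists share 1 array and are not independent of each other, while the permutations counted each list as a unit. The p-values, within batch 4 as well, are therefore smaller than 1 array can support. No test with the array as the unit was made. The values say that lists of this array differ from others, not that 5 proteins do so independently.

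**Figure D5:**
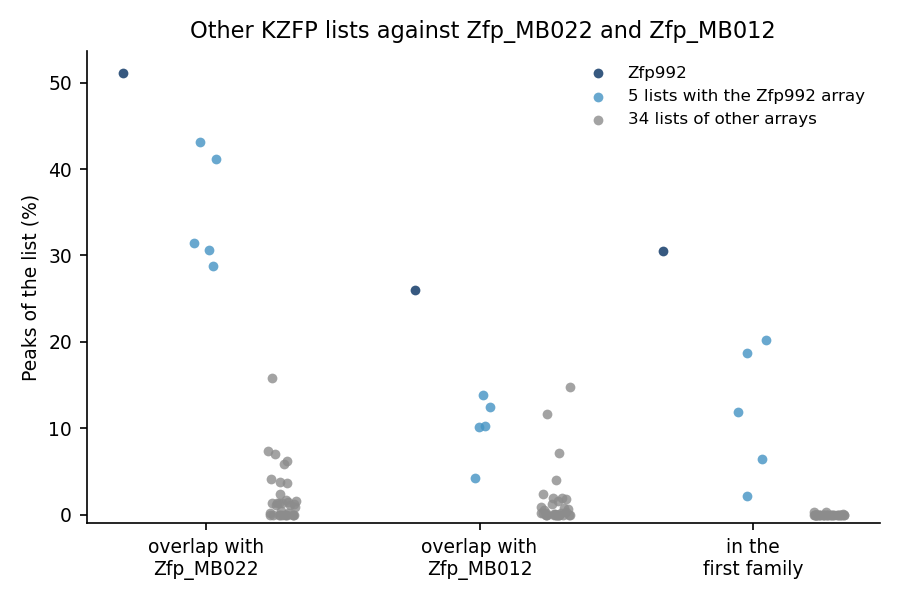
Percentage of the peaks of each other list that overlap a Zfp_MB022 peak, that overlap a Zfp_MB012 peak and that lie in the first family, with a point for each list: Zfp992 (dark blue), the 5 lists with the same array (light blue) and the 34 lists of other arrays (grey). The light blue points lie at 28.7% to 43.1% in the first column, above all grey points.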

How the data were processed

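Reads of 100 bp were aligned by the authors to GRCm39 with BWA, with 1 of several equally good alignments kept at random, and peaks were called in MACS2 for each library, with the batch's mixed input as background. Peaks with any overlap with an empty vector control peak were removed by the authors, and a q value of 0.01 and a fold of 10 were required, with a lower fold accepted for libraries that kept few peaks. The deposited lists of the pair, of Zfp992 and of the 5 proteins with its array hold no fold under 10, whereas 10 of the 34 lists of other arrays do, down to 5.0001. The submitters' processing notes name BWA, SAMtools 1.19, deepTools 3.5.4 and MACS2 2.2.7.1. The deposited fold enrichment is a ratio of ChIP over input. The deposited lists also hold the −log10 p and −log10 q of each peak, its summit, and a display score. The score and −log10 p were not used. Read depth is not carried by peak lists, and the order of depths comes from the study's sequencing statistics.

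Chromosome accessions were translated to chromosome numbers and checked: 242 of 365 Zfp_MB022 windows held the Zfp_MB022 motif when translated this way, and 0 when every chromosome was replaced by the next. Peaks on scaffolds (37, none in the pair) were left out. Summit windows of 200 bp were aligned with blastn 2.17.0 (word size 11) at 80% identity over at least 100 bp. Copies within 300 bp on a strand were merged. Motifs were searched on both strands without mismatch. Genes came from the GENCODE annotation of GRCm39. LTRIS2 is the study's name, and no repeat annotation was used here. Intervals are exact 95% binomial intervals. Overlap and family steps were tested on simulated data.

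The peaks named are the 5 highest by fold among common sites (by the Zfp_MB022 fold) and among private peaks of each list, family and other peaks apart, and the 10 highest private Zfp_MB012 peaks within 1000 bp of a start. Genes named hold a named summit or have a start within 10 kb. Rnf138, Acyp2, the genes at the other common sites and the nearest genes beyond 10 kb were added after their values were seen. Members, lists and tests were chosen with earlier results of these data known. Alternatives were the overlap rule, the fold and q limits, identity, length and window of the family, a mismatch in the motif, batch, and leaving out each list of the same array. Of the 54 samples, 42 have a list, and the 12 others were not analysed here.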

Additional observations from a re-analysis of the deposited data

How the results depend on the processing

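The overlaps were identical when summits had to lie within 100 bp, when 0.5 of the shorter peak had to be covered, and at a −log10 q of at least 10. With a fold of at least 15 in both lists, common sites were 6.49% of the Zfp_MB022 list (12 of 185), and the overlap with Zfp992 was 11.4% of the Zfp_MB022 list, 25% of the Zfp_MB012 list, and 30.9% and 11.8% of the Zfp992 list for overlap with Zfp_MB022 and Zfp_MB012. The family share of Zfp_MB022 was 55.1% at 90% identity, 69.6% with a 400 bp window and 82.7% at a fold of at least 15, and that of Zfp_MB012 was 25.5% at 90% identity. The longer Zfp_MB022 motif was in 74.5% of Zfp_MB022 windows with 1 mismatch, 58.6% of 100 bp windows and 74.6% of windows with a fold of at least 15. The motif TAAAACAGATAGCGA was in 27.1% of Zfp_MB022 and 14.3% of Zfp_MB012 windows, which with 1 mismatch were 68.5% and 35.7%, and in 3.12% of Zfp_MB012 windows (1 of 32) at a fold of at least 15. Copies bound by Zfp_MB022 were 13.3% at 90% identity. The cause of these shifts was not tested. Within batch 3, Zfp993 against 10 lists gave differences of 30.4 points for Zfp_MB022, 7.07 for Zfp_MB012 and 6.45 for the family (exact permutation test, adjusted p = 0.136, 0.273 and 0.136), and at a fold of at least 15 the difference for Zfp_MB012 was 3.26 points. Leaving out each of the 5 lists gave 30.9 to 34.5 points for Zfp_MB022 and 7.73 to 10.1 for Zfp_MB012. For the family it gave 9.77 to 14.3 points. In the exact permutation test all had an adjusted p under the threshold of 0.05, with each list again counted as a unit. No paired analysis was possible because each KZFP has 1 library. With 1 library per KZFP, no value here carries an error between repeat experiments.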

Other observations

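Copies of the element in pairs, on the same strand with starts 1 to 10 kb apart, were counted as a possible mark of proviruses with both LTRs. Of the 944 copies, 124 had such a partner (13.1%), with a median spacing of 4576 bp over 63 pairs. A partner was present for 16 of the 168 copies with a Zfp_MB022 summit (9.52%) and for 2 of the 23 with a Zfp_MB012 summit (8.70%). Of the 15 pairs with a Zfp_MB022 summit in at least 1 copy, 1 had a summit in both.

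Bound shares did not follow the identity of a copy to the seed. Of the copies that span the site, Zfp_MB022 had summits in 15 of 47 at 90% identity or more (31.9%, 19.1% to 47.1%), 17 of 115 from 85% to 90% (14.8%, 8.85% to 22.6%), 53 of 178 from 82% to 85% (29.8%, 23.2% to 37.1%) and 83 of 337 from 80% to 82% (24.6%, 20.1% to 29.6%). Zfp_MB012 had summits in 2, 1, 12 and 8 of them. By location of the summit, the 38 common Zfp_MB022 family peaks were intergenic in 22 cases (57.9%, 40.8% to 73.7%) and intronic in 12 (31.6%). Of the 234 private ones, 126 were intergenic (53.8%, 47.2% to 60.4%), 79 intronic (33.8%), 21 at promoters (8.97%) and 8 in exons (3.42%). Over all peaks of the 34 lists of other arrays, 35.0% were intergenic, 32.2% intronic, 28.1% at promoters and 4.65% in exons. The intronic shares were thus near that of the other lists.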
